A study of Homo sapiens with 8 samples.

Results

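The mitotic spindle and division genes were followed across increasing doses of a plant extract and of one of its cardiac glycosides in A549 cells, an established line from a human lung carcinoma. The members were 42 listed symbols, from the cyclin-dependent kinase that starts mitosis to the proteins that cut the cell apart at its end. They were taken by symbol, with no cutoff on a measured value, but the list was chosen with earlier results of these data known. Of the 42 symbols, 41 were matched to a probe on the arrays, out of 19046 genes tested. UBE2C was not matched. All 41 genes were well above the background on all 8 arrays, as were 11493 of the 19046 genes, called the bright genes here.

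The study compared an ethanol extract of Descurainia sophia seeds (EEDS) with helveticoside, a glycoside purified from that extract. The EEDS series held an EEDS vehicle control and cells treated with 1.25, 5 and 20 μg/mL EEDS, and the helveticoside series held its own vehicle control and 3.75, 15 and 60 nM. All samples were A549 cells with no other agent named, the extract was dissolved in dimethyl sulfoxide, and the labels give an exposure of 48 h whereas the methods give a shorter one of 1 day. RNA of 3 cultures was pooled for each array and each dose had 1 array, so replicate error is unknown and no single dose was tested. The doses of the series are in different units and were not matched for strength.

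Mitosis is driven by CDK1 bound to a cyclin, which is switched on by CDC25 phosphatases and switched off when the anaphase-promoting complex marks cyclin B and securin for destruction. Before that, chromosomes attach to spindle microtubules through the kinetochore, and the spindle assembly checkpoint holds the complex back until every chromosome is attached. Transcripts of most of these genes peak in the G2 and M phases of proliferating cells, and many of their promoters carry a CHR element and CCAAT boxes, through which the MuvB complex, with MYBL2 and FOXM1 or in its repressive DREAM form, and NF-Y act.

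The promoter sequences show these shared elements. RefSeq promoters of GRCh38.p14, running from 250 bases before to 50 bases after a transcription start, were at hand for 35 of the 42 genes. The CHR motif TTTGAA was found on either strand in 25 of the 35 genes (71.4%), against 18.2% of 27305 genes with a promoter. The CCAAT motif was found on either strand in 29 of the 35 (82.9%), against 39.7% of all genes, and both motifs in 21 (60.0%), against 8.37%. The motifs can overlap by 1 letter and were counted separately, and a match is a description of these letters and not a site of binding. For genes with more than 1 start, a motif in any of the promoters was counted. Without an entry were AURKA, BUB3, TTK, TPX2, BIRC5, UBE2C and FOXM1.

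Parts of 6 promoters, from 130 bases before to 30 bases after the most downstream start, are shown for 6 of the members with a called trend or a more than 2-fold change. They are read 5′ to 3′ on the strand of the gene. Capitals mark the CHR motif TTTGAA or its reverse complement TTCAAA, and the CCAAT box or its reverse complement ATTGG. CDK1, MAD2L1, ANLN and PTTG1 were higher at the top doses of both agents, and SPC25 and HMMR were lower. Not shown are CENPE, KIF2C, NUF2 and NDC80, which were also more than 2-fold higher with EEDS. The promoters of CENPE and KIF2C held neither motif, and those of NUF2 and NDC80 held TTTGAA without CCAAT. AURKA and BIRC5, which had a called trend, had no promoter entry. The windows lie at chr10:60778348-60778507 (plus strand) for CDK1, chr4:120066819-120066978 (minus strand) for MAD2L1, chr7:36389732-36389891 (plus strand) for ANLN, chr5:160421780-160421939 (plus strand) for PTTG1, chr2:168890401-168890560 (minus strand) for SPC25 and chr5:163460502-163460661 (plus strand) for HMMR.
CDK1: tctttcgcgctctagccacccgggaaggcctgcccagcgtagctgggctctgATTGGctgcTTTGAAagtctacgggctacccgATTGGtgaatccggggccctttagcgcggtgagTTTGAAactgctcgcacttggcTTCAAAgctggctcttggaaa
MAD2L1: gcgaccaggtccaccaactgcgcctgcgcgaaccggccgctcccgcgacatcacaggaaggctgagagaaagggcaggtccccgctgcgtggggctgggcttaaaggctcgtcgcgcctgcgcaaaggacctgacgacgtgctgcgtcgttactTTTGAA
ANLN: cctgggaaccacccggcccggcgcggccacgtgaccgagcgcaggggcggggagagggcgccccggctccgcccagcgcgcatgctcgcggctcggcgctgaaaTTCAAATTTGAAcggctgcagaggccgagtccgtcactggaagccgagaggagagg
PTTG1: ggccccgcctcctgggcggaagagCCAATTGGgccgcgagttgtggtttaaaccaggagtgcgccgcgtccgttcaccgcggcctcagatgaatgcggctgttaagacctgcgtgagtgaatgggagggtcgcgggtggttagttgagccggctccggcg
SPC25: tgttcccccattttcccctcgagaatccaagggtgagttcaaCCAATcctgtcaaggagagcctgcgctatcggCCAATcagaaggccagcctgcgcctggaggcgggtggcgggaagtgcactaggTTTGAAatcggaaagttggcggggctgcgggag
HMMR: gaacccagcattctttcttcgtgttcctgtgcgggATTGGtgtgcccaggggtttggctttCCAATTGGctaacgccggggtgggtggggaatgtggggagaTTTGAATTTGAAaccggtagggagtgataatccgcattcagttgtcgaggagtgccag
In the windows shown, CDK1, which was higher, and SPC25 and HMMR, which were lower, carried both motifs. The promoter of ANLN held no CCAAT, and neither did the window of MAD2L1. SPC25 held TTTGAA across its start, from -3 to 3, with CCAAT at -88 and -56, and HMMR held TTTGAA in direct repeat from -28 to -17. CDK1 held TTTGAA at -69 and -13 and its complement at 10, with the complement of CCAAT at -78 and -46. In the PTTG1 window CCAAT and its complement overlapped from -106 to -99, and none of its promoters held TTTGAA. Across the members, the 25 genes with TTTGAA had a median log2 ratio of 0.59 at 20 μg/mL EEDS and 0.22 at 60 nM helveticoside, and the 10 genes with a promoter entry but without it had 0.68 and 0.55.

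Each array held 44495 spots, of which 43118 belonged to probes, of which between 246 and 331 per array were called outliers and dropped. The median signal was 182 to 214 in the EEDS series and 223 to 278 in the helveticoside series, over a local background of 27 to 34, and no probe was saturated. All 10 epithelial and A549 markers were well above background on all arrays, whereas 3 of 5 leukocyte markers, 3 of 4 endothelial markers and 3 of 5 fibroblast markers were not on any array. Among the leukocyte markers, CD14 had a log2 intensity of 9.01 to 9.96 on the middle-dose and top-dose arrays of both series and of 11.29 to 11.76 on the other arrays, and its part in the results was not tested. The precision of every value is limited by the number of arrays. In bulk samples, fewer cells in mitosis and less RNA per cell cannot be told apart.

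At the top doses most of the mitotic genes stood above the vehicle control, and few differed from it by more than 2-fold. The median log2 ratio of the 41 genes was 0.28, 0.03 and 0.59 at 1.25, 5 and 20 μg/mL EEDS, and -0.04, -0.11 and 0.22 at 3.75, 15 and 60 nM helveticoside. At 20 μg/mL EEDS 31 of 41 genes were above the control, and at 60 nM helveticoside 26 were, against 49.5% and 51.2% of the 11493 bright genes. Most of the genes thus lay above the EEDS control at 20 μg/mL by less than 2-fold.

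Scaling each array to its 75th percentile in place of quantile normalization moved the median of all genes to -0.36 at 20 μg/mL EEDS and to -0.18 at 60 nM helveticoside. The medians of the mitotic genes were then 0.83 and 0.44, so the distance between them and all genes was larger under this scaling.

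**Figure D1:**
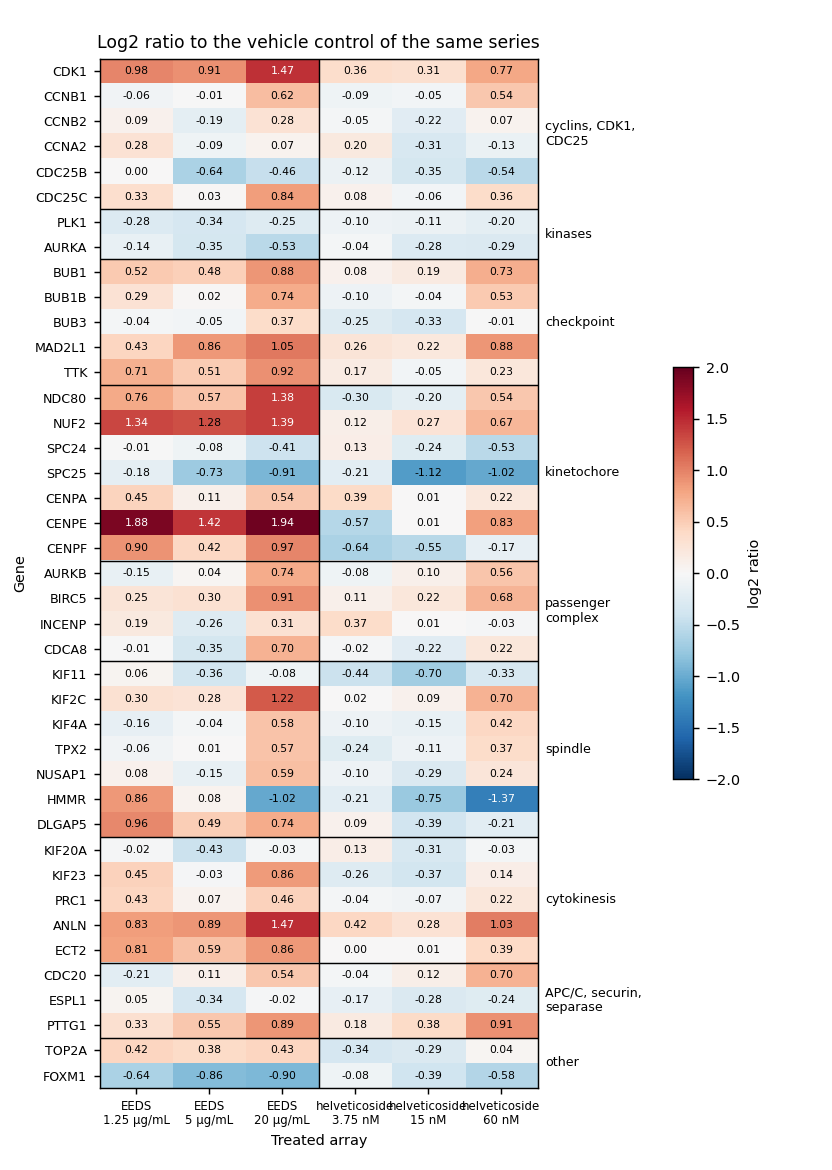
Log2 ratio of 41 mitotic genes (rows, grouped by role) to the vehicle control of the same series on each of the 6 treated arrays (columns), from -2 in blue to 2 in red with the value in each cell. CENPE reached 1.94 at 20 μg/mL EEDS, and HMMR was the lowest at both top doses, at -1.02 and -1.37.

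At 20 μg/mL EEDS, 7 genes were more than 2-fold higher than the control, a call that 13.3% of all genes tested met. They were CENPE (3.85-fold), ANLN (2.77-fold), CDK1 (2.76-fold), NUF2 (2.61-fold), NDC80 (2.61-fold), KIF2C (2.34-fold) and MAD2L1 (2.07-fold). Only HMMR was more than 2-fold lower (2.03-fold), against 14.5% of all genes. At 1.25 μg/mL 2 genes, CENPE and NUF2, were more than 2-fold higher (4.22% of all genes), and the same genes were so at 5 μg/mL (7.33% of all genes).

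Helveticoside took fewer of the genes past 2-fold. At 60 nM ANLN alone was more than 2-fold higher (2.04-fold), against 10.8% of all genes, and HMMR (2.59-fold) and SPC25 (2.03-fold) were lower, against 12.8% of all genes. At 15 nM SPC25 was the only one more than 2-fold lower, with 8.06% of all genes so called. The ratios at 3.75 nM ran from -0.64 to 0.42. The share of members past 2-fold was near that of all genes for the EEDS rises and below it in the other top-dose comparisons.

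**Figure D2:**
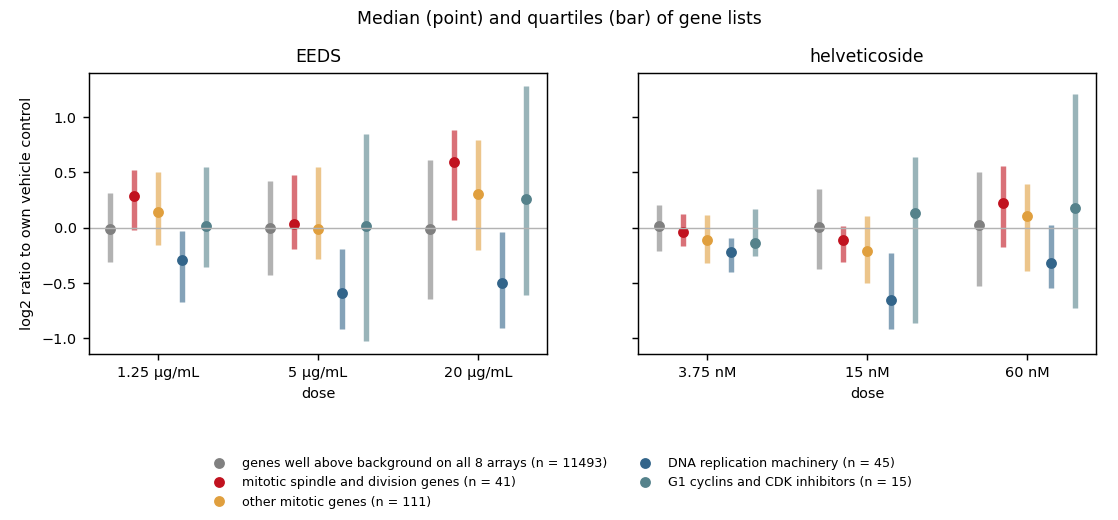
Median (point) and quartiles (bar) of the log2 ratio to the vehicle control for the mitotic spindle and division genes and 4 comparison sets, at each dose of EEDS (left) and helveticoside (right). The mitotic genes sat at 0.59 and 0.22 at the top doses, and the DNA replication genes at -0.50 and -0.32.

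Dose trends were tested with limma over all 8 arrays, as a slope per dose step in each series, with p-values adjusted over the 19046 genes. For EEDS, 5 mitotic genes rose with dose (ANLN, BIRC5, CDK1, MAD2L1 and PTTG1), with 7.27% of all genes called in this direction, and AURKA alone fell, with 7.85% of all genes so called. For helveticoside PTTG1 alone rose (5.48% of all genes), and no member fell (5.80% of all genes). At an unadjusted limma p under 0.05 were 9 members for helveticoside, 5 with a rising and 4 with a falling slope. Of all 19046 genes, 5677 were so, 2788 of them rising. For EEDS, 14 members were so, 10 of them rising, and 6363 of all genes, 3126 of them rising. In both directions together, the share of members called was near the background for EEDS and below it for helveticoside.

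The EEDS calls were sensitive to leaving out single arrays. Leaving out an array of the other series does not alter a slope. It alters only the shared spread and lowers the residual degrees of freedom. The count of rising genes was 0 without the EEDS control or the 20 μg/mL array, 1 without the helveticoside control or the 3.75 nM array, 2 without the 15 nM or the 60 nM array, and 3 without the 1.25 μg/mL or the 5 μg/mL array. These counts include KIF2C and NUF2, each called in 1 of these 8 fits and not in the main fit. Of the 5 genes, PTTG1 kept its call in 6 of the 8 fits, MAD2L1 in 2, CDK1 and BIRC5 in 1 each, and ANLN in 0. The fall of AURKA was lost without any one of the 8 arrays, with an adjusted p of 0.0649 to 0.285 by limma. For helveticoside, the rise of PTTG1 was kept without the EEDS control or the 20 μg/mL array, and lost without any one of the other arrays. Without the EEDS control 1 member fell with helveticoside, HMMR. No difference between the EEDS and helveticoside slopes passed the threshold for any member in limma, with 0 members at an unadjusted p under 0.05 and a lowest p of 0.160, and among all genes 0 passed and 525 had an unadjusted p under 0.05.

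**Figure D3:**
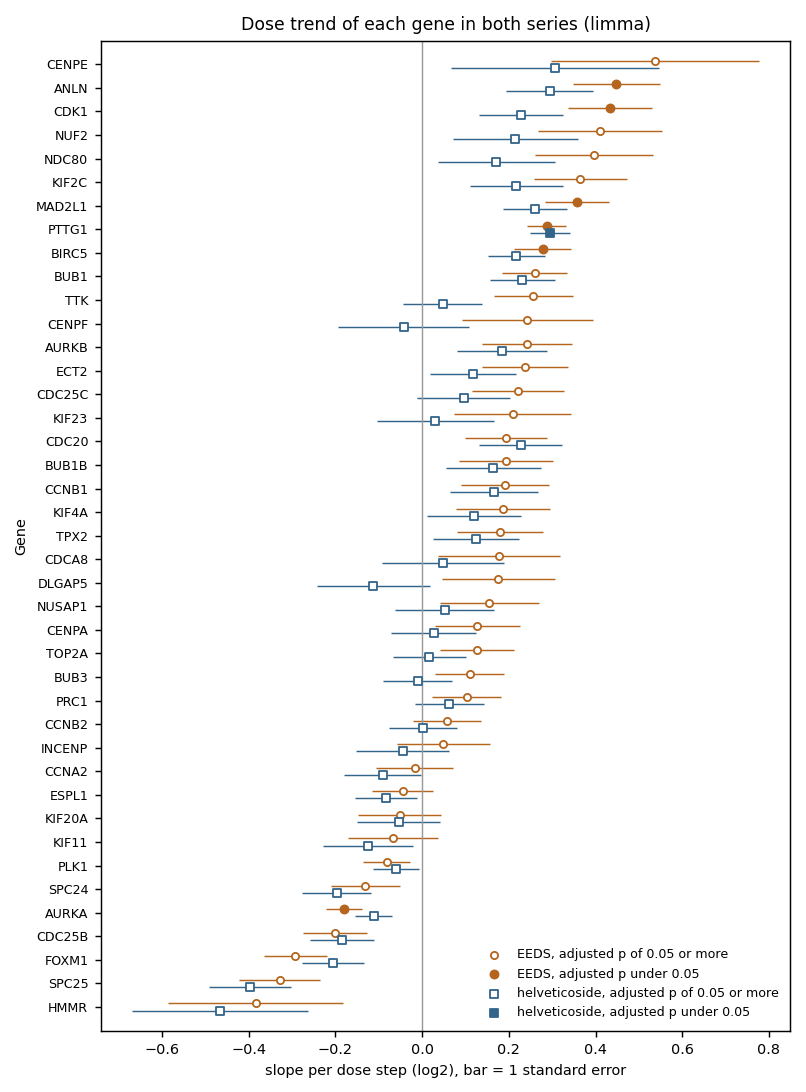
Slope per dose step (log2, horizontal axis) with 1 standard error for each mitotic gene in the EEDS series (circles) and the helveticoside series (squares), filled where the limma adjusted p was under 0.05. Filled symbols mark ANLN, CDK1, MAD2L1, PTTG1, BIRC5 and AURKA for EEDS and PTTG1 for helveticoside.

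Among the mitotic cyclins, CDK1 and the CDC25 phosphatases, CDK1 was the gene that rose with EEDS. CDK1, the kinase whose activity starts mitosis, had a log2 intensity of 12.19 on the EEDS control and of 13.16, 13.09 and 13.65 at the increasing doses, and of 12.29, 12.65, 12.61 and 13.06 in the helveticoside series. All treated arrays of both series were higher than either control. Its slope was 0.43 (SE 0.10, limma adjusted p = 0.0408) for EEDS and 0.23 (adjusted p = 0.189) for helveticoside.

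The cyclins differed from their kinase. CCNB1, which encodes the main cyclin partner of CDK1, stood at 13.56, 13.49, 13.55 and 14.18 in the EEDS series and at 13.53, 13.44, 13.48 and 14.07 in the helveticoside series. On this probe the level was flat up to the middle dose and higher at the top dose of both agents, with log2 ratios of 0.62 and 0.54. This probe had 8 to 10 usable spots per array, whose SD of 0.02 to 0.04 on the log2 scale holds within-array error alone. The second probe of CCNB1 was above the control at every dose, with 0.28, 0.42 and 0.80 for EEDS and 0.28, 0.30 and 0.69 for helveticoside, so the probes differed below the top dose.

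CCNB2, the other mitotic B-type cyclin, had top-dose ratios of 0.28 and 0.07, and CCNA2, the cyclin of S phase and of entry into mitosis, had 0.07 and -0.13. CDC25C, one of the phosphatases that remove the inhibitory phosphates from CDK1, stood at 0.84 and 0.36. CDC25B, another of them, went the other way, at -0.46 and -0.54. No slope of these 4 genes or of CCNB1 passed the threshold.

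AURKA and PLK1 were lower than the control at every dose on the probes used, unlike the kinases CDK1, TTK, BUB1 and AURKB. AURKA, the Aurora kinase of centrosomes and spindle poles, was 12.18 on the EEDS control and 12.04, 11.83 and 11.65 at the increasing doses, and 11.91, 11.87, 11.63 and 11.62 in the helveticoside series. Its level went down at each step in both series, by 0.53 and 0.29 in all. The slope was -0.18 (SE 0.04, limma adjusted p = 0.0442) for EEDS and -0.11 (adjusted p = 0.148) for helveticoside. PLK1, the Polo-like kinase of mitotic entry and spindle assembly, had ratios of -0.28, -0.34 and -0.25 for EEDS and -0.10, -0.11 and -0.20 for helveticoside. A second PLK1 probe gave 0.13 at 20 μg/mL EEDS and -0.27 at 60 nM, so the direction for EEDS differed between the probes.

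The spindle assembly checkpoint genes stood above the EEDS control at 20 μg/mL in 5 of 5 cases, with a median ratio of 0.88, and above the helveticoside control in 4 of 5, with 0.53. MAD2L1, the checkpoint protein that binds and restrains CDC20, was 11.22, 11.65, 12.08 and 12.27 in the EEDS series and 10.95, 11.20, 11.16 and 11.83 in the helveticoside series. It was higher at each EEDS dose than at the one before, and in the helveticoside series it went up mainly at 60 nM. Its slopes were 0.36 (SE 0.07, limma adjusted p = 0.0342) and 0.26 (adjusted p = 0.0809).

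BUB1, a checkpoint kinase of the kinetochore, had top-dose ratios of 0.88 and 0.73, with limma adjusted p of 0.0736 and 0.111 for its slopes. BUB1B, which encodes the checkpoint protein BubR1, had 0.74 and 0.53, and TTK, the kinase Mps1 that starts checkpoint signaling, had 0.92 and 0.23. BUB3, the partner of both BUB proteins, had 0.37 and -0.01 on the probe used, whereas its second probe gave -0.45 and -0.43. Its direction with EEDS was thus not settled.

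The kinetochore genes held both the highest and some of the lowest values, and members of one complex went in opposite directions. NDC80, NUF2, SPC24 and SPC25 encode the 4 subunits of the NDC80 complex, which grips the microtubule end. NDC80 had ratios of 0.76, 0.57 and 1.38 for EEDS and -0.30, -0.20 and 0.54 for helveticoside, and NUF2 had 1.34, 1.28 and 1.39 and 0.12, 0.27 and 0.67. SPC24 had -0.01, -0.08 and -0.41 and 0.13, -0.24 and -0.53.

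SPC25 was 11.56, 11.38, 10.83 and 10.65 in the EEDS series and 11.52, 11.31, 10.39 and 10.50 in the helveticoside series. The middle and top doses of both agents were lower than both controls and both lowest doses. Its slopes were -0.33 (SE 0.09, limma adjusted p = 0.0710) and -0.40 (SE 0.09, adjusted p = 0.0541), neither past the threshold. At the top doses NDC80 and NUF2 were thus higher than the control while SPC24 and SPC25 were lower, with both agents.

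CENPE, the kinetochore motor that moves chromosomes to the spindle equator, was 8.11 on the EEDS control and 10.00, 9.54 and 10.06 on the treated arrays, and 8.85, 8.28, 8.86 and 9.67 in the helveticoside series. All 3 EEDS doses were higher than both controls, while helveticoside was above its control mainly at 60 nM. Its EEDS slope of 0.54 had an SE of 0.24 (limma adjusted p = 0.188). CENPF, a large protein of the outer kinetochore, had ratios of 0.90, 0.42 and 0.97 for EEDS and -0.64, -0.55 and -0.17 for helveticoside. CENPA, the histone variant that marks the centromere, had 0.54 and 0.22 at the top doses.

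The chromosomal passenger complex, which corrects faulty attachments and later directs cytokinesis, was above the EEDS control at 20 μg/mL in 4 of 4 genes, with a median of 0.72. BIRC5, which encodes its subunit survivin, was 14.86, 15.12, 15.16 and 15.77 in the EEDS series and 14.72, 14.83, 14.95 and 15.41 in the helveticoside series. It was higher at each dose than at the one before in both series. The slopes were 0.28 (SE 0.07, limma adjusted p = 0.0458) and 0.22 (adjusted p = 0.0943).

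The kinase subunit AURKB had top-dose ratios of 0.74 and 0.56, CDCA8 (borealin) had 0.70 and 0.22, and the scaffold INCENP had 0.31 and -0.03. At 5 μg/mL EEDS the same genes ran from -0.35 to 0.04. INCENP was at 0.19 at 1.25 μg/mL EEDS, and with helveticoside its highest ratio was at the lowest dose (0.37). The 2 Aurora kinases therefore had ratios of opposite sign at the top doses of both agents.

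**Figure D4:**
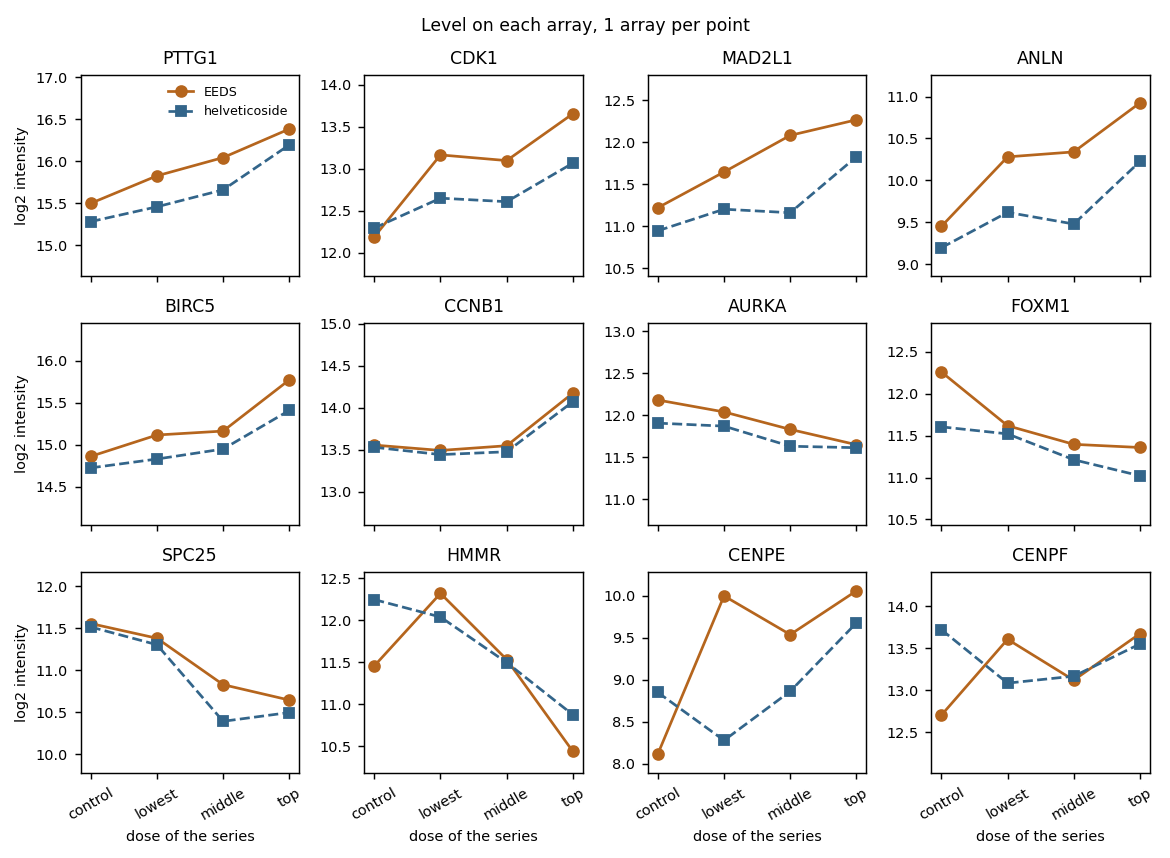
Log2 intensity of 12 mitotic genes on each of the 8 arrays, at the control, lowest, middle and top dose of EEDS (circles) and helveticoside (squares), each panel spanning the same 2.4 log2 units. PTTG1 and BIRC5 go up at each step and AURKA and FOXM1 down at each step in both series, whereas CENPE and CENPF start apart on the vehicle controls.

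Spindle motors and microtubule binders were mixed. KIF2C, a kinesin that depolymerizes microtubules, had ratios of 0.30, 0.28 and 1.22 for EEDS and 0.02, 0.09 and 0.70 for helveticoside, with a limma adjusted p of 0.0760 for the EEDS slope. KIF4A, a chromosome-bound kinesin, had 0.58 and 0.42 at the top doses, TPX2, the activator of AURKA, had 0.57 and 0.37, and NUSAP1, a microtubule bundler, had 0.59 and 0.24. KIF11, the kinesin that pushes spindle poles apart, had -0.08 and -0.33. DLGAP5, a spindle assembly factor, had 0.74 and -0.21.

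HMMR, a hyaluronan receptor that also binds spindle microtubules, was 11.46, 12.32, 11.53 and 10.44 in the EEDS series and 12.25, 12.04, 11.50 and 10.87 in the helveticoside series. The top dose was the lowest of its series with both agents, and from the lowest dose to the top dose each step was downward. The EEDS control lay below the 1.25 μg/mL array, so the slope was -0.38 (SE 0.20, limma adjusted p = 0.255) for EEDS, and -0.47 (SE 0.20, adjusted p = 0.198) for helveticoside.

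Among the genes of the central spindle and cytokinesis, ANLN had the highest ratios at the top doses. ANLN encodes anillin, which organizes the contractile ring, and was 9.45, 10.28, 10.34 and 10.92 in the EEDS series and 9.20, 9.62, 9.48 and 10.23 in the helveticoside series. All treated arrays were higher than either control, the 15 nM array only just. The slopes were 0.45 (SE 0.10, limma adjusted p = 0.0408) and 0.29 (SE 0.10, adjusted p = 0.122). Its EEDS call was lost without any one of the 8 arrays, with a limma adjusted p of 0.0509 to 0.294. ECT2, which activates RhoA at the division site, had 0.86 and 0.39 at the top doses, KIF23, a kinesin of the central spindle, had 0.86 and 0.14, and PRC1, which bundles its microtubules, had 0.46 and 0.22. KIF20A, another central spindle kinesin, had -0.03 and -0.03.

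The genes of sister chromatid separation parted in the same way. PTTG1, which encodes securin, the inhibitor of separase, was 15.50, 15.83, 16.04 and 16.38 in the EEDS series and 15.28, 15.46, 15.66 and 16.19 in the helveticoside series. It was higher at each dose than at the one before with both agents, and it was the only member past the threshold in both series. The slopes were 0.29 (SE 0.05, limma adjusted p = 0.0201) and 0.29 (SE 0.05, adjusted p = 0.0250). Near-identical copies of PTTG1 exist in the genome, and the part of the signal that comes from them was not tested.

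ESPL1, which encodes separase, stood close to its controls, at -0.02 and -0.24. CDC20, which activates the anaphase-promoting complex in mitosis, was 11.59, 11.39, 11.70 and 12.14 in the EEDS series and 10.89, 10.85, 11.01 and 11.59 in the helveticoside series. The top dose was the highest of its series in both, but the helveticoside array at 60 nM only matched the EEDS control. Neither slope passed the threshold, at a limma adjusted p of 0.222 and 0.184.

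TOP2A, the topoisomerase that untangles sister chromatids, had ratios of 0.42, 0.38 and 0.43 for EEDS and -0.34, -0.29 and 0.04 for helveticoside. FOXM1, a transcription factor that activates many G2 and M phase genes, was 12.26, 11.62, 11.40 and 11.36 in the EEDS series and 11.60, 11.52, 11.21 and 11.02 in the helveticoside series. It went down at each step in both series, opposite to most of the listed genes at the top dose. Its slopes were -0.29 (SE 0.07, limma adjusted p = 0.0505) and -0.21 (SE 0.07, adjusted p = 0.128), both short of the threshold.

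The dose profile was steady in some genes and not in others. At each EEDS step 4 genes went up (MAD2L1, ANLN, BIRC5 and PTTG1) and 4 went down (AURKA, SPC24, SPC25 and FOXM1). With helveticoside 6 went up at each step (BUB1, NUF2, KIF2C, ECT2, BIRC5 and PTTG1) and 5 went down (PLK1, AURKA, CDC25B, FOXM1 and HMMR). In 27 genes for EEDS and 19 for helveticoside, the middle dose was lower than both the lowest and the top dose. The shares of all genes with these profiles were not counted, so the counts are not read as a trait of the members.

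The step from the middle to the top dose went upward in 36 of 41 genes with EEDS, against 53.2% of all genes, and in 34 of 41 with helveticoside, against 55.4%. The median of this difference was 0.42 and 0.38 on the log2 scale, against 0.01 and 0.02 for all genes. It uses no vehicle control, and it has no test because each dose had 1 array. The largest upward EEDS steps were those of CDCA8 (1.05), KIF2C (0.94) and KIF23 (0.89), and those of helveticoside were of CENPE (0.81), ANLN (0.75) and NDC80 (0.74). AURKA, SPC24, FOXM1 and HMMR (-1.09 and -0.62) went down in both series, SPC25 in the EEDS series only, and PLK1, INCENP and CDC25B in the helveticoside series only.

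The vehicle controls themselves differed for some members. The helveticoside control minus the EEDS control had a median of -0.12 and an SD of 0.39 over the 41 genes, against an SD of 0.48 over the bright genes. In 13 of the 41 genes the controls differed by more than 0.4, as they did in 3732 of the 11493 bright genes, a like share. In CENPF they differed by more than 2-fold (1.02), as in 544 of the bright genes. The helveticoside control was also the higher one in HMMR (0.79), DLGAP5 (0.76), CENPE (0.73), NUF2 (0.43) and NDC80 (0.43), and the lower one in CDC20 (-0.70), FOXM1 (-0.65) and INCENP (-0.57).

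In 9 genes the EEDS control was the lowest of all 8 arrays, namely CDK1, BUB1, TTK, NDC80, NUF2, CENPE, CENPF, ECT2 and DLGAP5. The share of all genes with such a control was not counted. Set against the helveticoside control instead, the ratio at 20 μg/mL EEDS was -0.05 for CENPF and -0.02 for DLGAP5, so the difference of these genes rested on the control used. It was 1.21 for CENPE, 0.95 for NUF2, 0.96 for NDC80, 1.36 for CDK1 and 1.73 for ANLN. Against that control 12 genes in place of 7 were more than 2-fold higher, since many of the other members were lower on it. At 20 μg/mL EEDS the ratio to that control was -0.25 for FOXM1 and -0.26 for AURKA, in place of -0.90 and -0.53. The fall of HMMR was larger, at -1.81 in place of -1.02. Against the EEDS control, the ratio at 60 nM helveticoside was 0.05 for AURKB and -0.04 for KIF4A, in place of 0.56 and 0.42. It was 0.85 for CENPF and 1.10 for NUF2, in place of -0.17 and 0.67. Batch and series cannot be told apart here.

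EEDS and helveticoside gave more alike values as the dose went up. Across the 41 genes, Pearson's r between the log2 ratios was -0.03 at the lowest doses, 0.60 at the middle and 0.88 at the top, where 36 genes had the same sign (26 higher and 10 lower). Each series had its own control, the genes are not independent replicates, and r over the bright genes was 0.50, 0.88 and 0.93. The EEDS ratio exceeded the helveticoside ratio in 36 of 41 genes at the top dose, by a median of 0.24, in 31 at the middle and in 32 at the lowest. The share of all genes with a higher EEDS ratio was not counted. The doses were not matched, and no difference of slopes passed the test given above.

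**Figure D5:**
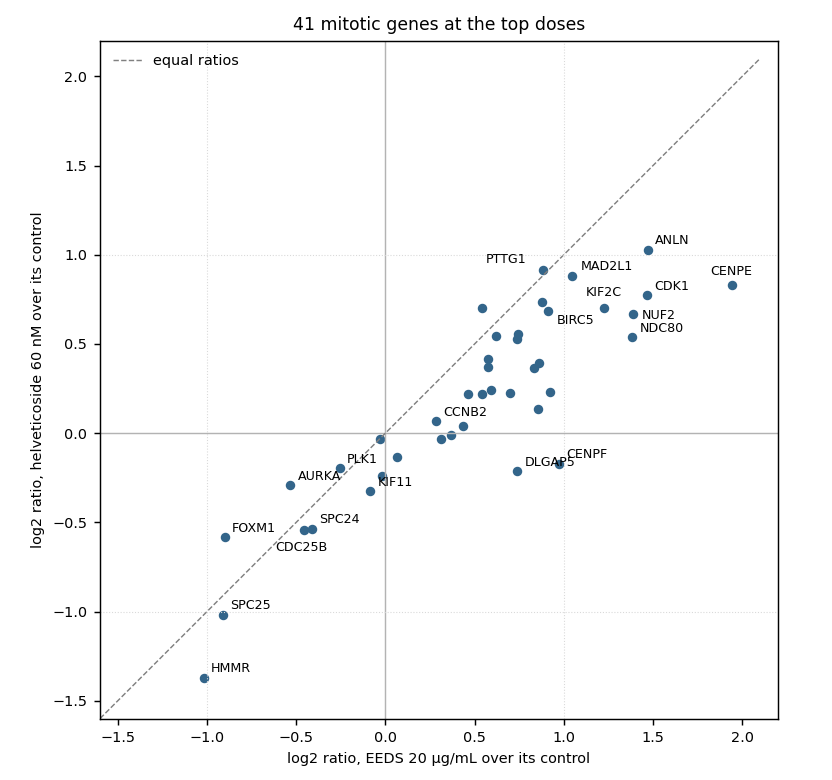
Log2 ratio of each of 41 mitotic genes at 20 μg/mL EEDS (horizontal) and at 60 nM helveticoside (vertical), each over its own vehicle control, with the line of equal ratios dashed and 2-fold marked by dotted lines. In 36 genes the point lies below the line, while HMMR and SPC25 lie low and ANLN high on both axes.

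The other genes of mitosis, 111 on the arrays, showed a wider range with a smaller shift. Their median ratio was 0.31 at 20 μg/mL EEDS and 0.11 at 60 nM helveticoside, with 9 rising and 7 falling for EEDS and 6 rising and 3 falling for helveticoside. Of all genes, 7.27% rose and 7.85% fell with EEDS, and 5.48% rose and 5.80% fell with helveticoside, so these counts were near or below the background. By class, the medians were 0.65 and 0.37 for 14 genes of entry into mitosis, 0.51 and 0.18 for 18 of condensin and cohesin, and 0.29 and 0.09 for 29 of the spindle and centrosome. They were 0.26 and 0.17 for 17 of the anaphase-promoting complex and -0.01 and -0.24 for 33 of the kinetochore.

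The largest rises and falls among them were larger than those of the listed members. WEE1, the kinase that holds CDK1 inactive, had top-dose ratios of 2.15 and 1.70 without passing the threshold (limma adjusted p = 0.0599 and 0.128). ARPP19, an inhibitor of the phosphatase PP2A in mitosis, rose with both agents (2.29 and 1.52), as did UBE2S (1.65 and 1.79), an enzyme that extends ubiquitin chains for the anaphase-promoting complex. CDC25A was at 1.45 and 1.71 without passing (limma adjusted p = 0.234 and 0.223). CKS2, a small partner of CDK1, was at 1.64 and 1.27, past the threshold for EEDS only (adjusted p = 0.0415 and 0.0990).

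Some subunits of the anaphase-promoting complex were at the other end, although 11 of the 17 genes of that list were above the EEDS control at 20 μg/mL. ANAPC4 fell with both agents, to ratios of -1.67 and -1.95 (limma adjusted p = 0.0132 and 0.0165), and so did CDC16, to -1.38 and -1.32 (adjusted p = 0.0236 and 0.0354). ANAPC16 (-1.26 and -1.03) and ANAPC2 (-1.19 and -0.63) did not pass. Chosen after the values were seen, ANAPC10 was at 1.06 and 1.04 without passing, and ANAPC11 rose with EEDS (0.36, limma adjusted p = 0.0416). ZWINT, of the outer kinetochore, fell with EEDS (-1.04, adjusted p = 0.0426) and did not pass with helveticoside (adjusted p = 0.0575).

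Among the regulators of mitotic gene transcription, CDKN1A rose with both agents. Over the 23 genes of this list the median was 0.80 and 0.86 at the top doses, with 5 rising and 4 falling for EEDS and 5 rising and 1 falling for helveticoside. The shares of all genes so called were 7.27% and 7.85% for EEDS and 5.48% and 5.80% for helveticoside. CDKN1A, which encodes the CDK inhibitor p21, was 7.18, 8.41, 9.83 and 10.42 in the EEDS series and 7.18, 7.07, 8.87 and 9.70 in the helveticoside series, with slopes of 1.11 (SE 0.18, limma adjusted p = 0.0201) and 0.94 (SE 0.18, adjusted p = 0.0329). Its rise was 9.40-fold and 5.76-fold at the top doses, past any listed member.

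MYBL2 (B-Myb) and E2F1, activators of cell cycle genes, had top-dose ratios of -1.16 and -0.59 and of -0.85 and -0.76, and the pocket proteins RB1 and RBL1 had 0.50 and 0.79 and 0.42 and 0.51. None of these 4 passed the threshold in either series. Further members of the same families are named after their values were seen. E2F2 went the same way as E2F1, to -1.48 and -0.68, and passed with EEDS only (limma adjusted p = 0.0378 and 0.149). Some others went the other way. The pocket protein RBL2 fell with both agents, to -1.80 and -1.74 (limma adjusted p = 0.0201 and 0.0256). E2F5 rose with both, 2.83-fold and 3.11-fold at the top doses (adjusted p = 0.0166 and 0.0177), E2F3 rose with EEDS (1.07, adjusted p = 0.0450) and E2F4 with helveticoside (1.48, adjusted p = 0.0417).

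DNA replication genes, which are used in S phase, lay on the other side of the control from the mitotic genes. Of 45 genes, 34 were below the EEDS control at 20 μg/mL and 33 below the helveticoside control at 60 nM, with medians of -0.50 and -0.32, and with 4 falling and 1 rising for EEDS and 4 falling for helveticoside. The 15 G1 cyclins and CDK inhibitors, CDKN1A among them, had medians of 0.26 and 0.18, with 3 rising and 2 falling for EEDS and 2 rising and 1 falling for helveticoside. Among all genes, 7.27% were called rising and 7.85% falling for EEDS, and 5.48% and 5.80% for helveticoside. The difference between these lists and the mitotic genes was not tested.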

How the data were processed

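RNA of A549 cells was labeled with a single dye and hybridized to Agilent whole human genome arrays, 1 array per dose. For every spot, the authors deposited intensity values of the scanner software (median signal, local background, a background-subtracted processed signal and quality calls) and a table of processed intensity values, which from its values holds the median signal minus background, quantile-normalized within each series. In the methods, elements over 1.4 times the local background were kept and quantile-normalized.

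Here control and outlier spots were removed, processed signals were averaged per probe, and the 8 arrays were quantile-normalized together and put on the log2 scale. A value not over 1.4 times the background was raised to its array's lowest detected signal where it lay below that signal, and otherwise kept. Of 34127 probes, 22 had all spots called outliers on an array, and 24812 were matched to 19056 genes. The brightest probe stood for each of 4797 genes with more than 1, and 19046 genes detected in both series were tested. Ratios are to the vehicle control of the same series.

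The limma fit (3.58.1, R 4.3.3, statmod 1.5.0, trend and robust estimation) had an intercept and a slope per dose step (0 for the control, then 1, 2 and 3) for each series, which left 4 residual degrees of freedom, and an adjusted p (Benjamini-Hochberg) under 0.05 was called. Adjusted p-values measure only the spread of single arrays about these lines. In simulated data of this design for EEDS, 200 of 19046 genes were changed, 96 were called and 91 of the calls were changed genes, with 65% of slopes of 1 and 26% of slopes of 0.5 found. The real EEDS fit called far more genes, 1384 rising and 1495 falling. The simulation also shuffled the spreads among genes and drew independent normal errors. Its rates therefore check the code and do not give the power or the error rate in these data. Python 3.11.15, numpy 2.4.6, pandas 2.3.3 and matplotlib 3.10.9 were used for the rest.

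The members and the lists were chosen with earlier results of these data known. Named besides the members were the 5 largest mean rises and 5 largest mean falls at the top doses among the other mitotic genes bright enough on both controls and both top doses (108 of 111), and CDKN1A, E2F1, MYBL2, RBL1 and RB1. Alternatives covered scaling, background, values, filter, probe, control, threshold, fit and each array left out.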

Additional observations from a re-analysis of the deposited data

How the results depend on the processing

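The median log2 ratio of the mitotic genes at the top dose stayed above 0 in every alternative, but its size moved, from 0.52 (authors' values) to 0.83 (75th-percentile scaling) for EEDS, main value 0.59, and from 0.10 (other series' control) to 0.44 (75th-percentile scaling) for helveticoside, main value 0.22. The counts going up from the middle to the top dose (chosen after seeing the data) moved by 1 gene at most under the alternatives of the values, and limma called 0 slope differences in every alternative. Counts past a threshold moved more. More than 2-fold higher at 20 μg/mL EEDS were 12 genes against the other series' control and 21 at 1.5-fold, in place of 7. More than 2-fold lower were 0 with 75th-percentile scaling, 2 with the authors' processed values and 3 at 1.5-fold, in place of 1. For 60 nM helveticoside, 4 genes were higher with 75th-percentile scaling, 0 with the signal as scanned, with normexp correction and with the authors' values, 2 against the other control and 10 at 1.5-fold, in place of 1. Lower were 1 with 75th-percentile scaling, the signal as scanned, normexp, the authors' values and the mean of both controls (added after seeing the data), in place of 2.

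Rising EEDS trends numbered 8 with 75th-percentile scaling and 0 in fits of the own series alone or without the control, lowest, middle or top step of both series, in place of 5, and ranged from 0 to 3 with each array left out. Falling EEDS trends numbered 2 with the signal as scanned, normexp, the authors' values and genes well above background only, and 0 with 75th-percentile scaling, a linear dose, the own series alone or any step left out, in place of 1, and were 0 with each array left out. Rising helveticoside trends numbered 2 with 75th-percentile scaling and 0 in fits of the own series alone or without any step, in place of 1, and ranged from 0 to 1 with each array left out. Falling ones numbered 1 with the signal as scanned, normexp, the authors' values and genes well above background only, in place of 0, and ranged from 0 to 1. Fits with fewer arrays have fewer degrees of freedom, and the cause of the other changes was not tested. Of the values for single genes, 28 slopes gained and 91 lost the threshold over the alternatives, and no called value changed sign.

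No paired analysis was possible because each group had 1 array and the labels give no replicate numbers. Signal over background limited no member, since all 41 were well above it on all arrays.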
